A study of Mus musculus with 2 samples.

Results

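Msx1, Msx2, Foxa2, Sox17, Gata2 and Foxo1 are 6 genes for transcription factors that the uterus needs to become receptive to the embryo. They were examined among 21900 protein-coding genes in a list of peaks of N4-acetylcytidine (ac4C), a cytidine of RNA that carries an acetyl group. A peak was given to a gene when its summit, the position of strongest signal, lay inside the gene's RefSeq span, introns included. Of the 21192 peaks in the list, 17 met this rule, in 5 of the 6 genes. The share of all protein-coding genes with a summit in their span was 30.6%. The 2 libraries were an ac4C immunoprecipitation and an input control, each 1 library of polyA RNA, made from whole uteri of wild-type animals at gestational day 4. Strain, age and the number of animals pooled were not given in the sources used here. With 1 library in each group there is no replicate check, and the values describe these libraries.

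Uterine receptivity is a short window, set by ovarian progesterone and estrogen, in which the lining epithelium, its glands and the stroma below it change so that a blastocyst can attach. MSX1 and MSX2 are homeobox factors of the uterus before attachment, and mice that lack both in the uterus fail at implantation. FOXA2 is the forkhead factor of the uterine glands and is needed for the gland-derived cytokine LIF. SOX17, an HMG-box factor of the epithelium, acts on the hedgehog ligand gene Ihh, GATA2 acts upstream of the progesterone receptor, and FOXO1 acts in the epithelium and in the decidualizing stroma. Acetylation of cytidine in RNA is carried out by NAT10 and has been linked to the stability and translation of mRNA.

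The peaks met an annotated gene start at 2 places, both in Gata2, and came within 13 bases of one in Msx1. The sequences around these 3 starts are shown because they are the places where a peak edge or summit could be read against sequence. Each runs from 250 bases before the start to 30 bases after it, 5′ to 3′ on the gene's strand, from RefSeq on GRCm38.p6. Capitals mark the bases after the start that lie inside a peak.
Gata2, upstream start, chr6:88193641-88193920, plus strand: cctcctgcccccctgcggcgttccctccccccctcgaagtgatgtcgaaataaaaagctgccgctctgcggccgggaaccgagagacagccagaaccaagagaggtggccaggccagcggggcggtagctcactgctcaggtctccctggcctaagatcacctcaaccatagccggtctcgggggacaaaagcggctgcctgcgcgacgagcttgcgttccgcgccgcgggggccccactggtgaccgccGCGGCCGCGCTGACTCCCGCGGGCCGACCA
Gata2, downstream start, chr6:88198414-88198693, plus strand: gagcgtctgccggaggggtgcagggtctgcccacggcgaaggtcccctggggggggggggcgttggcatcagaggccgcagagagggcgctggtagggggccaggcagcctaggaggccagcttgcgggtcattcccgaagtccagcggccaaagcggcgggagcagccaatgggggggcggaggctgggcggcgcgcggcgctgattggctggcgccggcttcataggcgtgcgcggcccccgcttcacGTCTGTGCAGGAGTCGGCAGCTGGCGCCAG
Msx1, only start in the table, chr5:37824556-37824835, minus strand: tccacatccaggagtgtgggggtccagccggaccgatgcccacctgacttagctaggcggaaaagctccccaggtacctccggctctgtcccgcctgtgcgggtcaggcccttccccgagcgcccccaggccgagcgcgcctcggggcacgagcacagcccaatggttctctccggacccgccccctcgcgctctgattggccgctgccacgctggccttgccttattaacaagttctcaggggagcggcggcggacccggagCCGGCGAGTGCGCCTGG
In the upstream Gata2 sequence all 280 bases lay inside the first peak, whose summit was 27 bases after the start. In the downstream Gata2 sequence the fourth peak began on the first transcribed base, so that all 30 bases after the start were inside it and none before it. In Msx1, 17 of the bases shown were inside a peak.

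Most of these letters are DNA before the start, which is not RNA of the gene, and only 30 of the 280 bases of the downstream Gata2 sequence and 17 of those of Msx1 lay inside a peak. The base content of the downstream Gata2 and Msx1 sequences therefore describes the surroundings of the starts and not the peaks. The upstream Gata2 sequence lay wholly inside the first peak, though mostly before the annotated start. The summit of that peak also lay in Gm38708, a non-coding RNA gene on the minus strand, and the list carries no strand. The base content of this sequence therefore need not be that of the RNA under the peak. On the gene's strand, cytidine made up 37.5% of the upstream Gata2 sequence, 28.2% of the downstream one and 37.9% of that of Msx1. In the 5 windows of these genes that no peak reached, it made up 32.1% in Foxo1, 30.7% in Msx2, and 21.4%, 25.4% and 28.9% in Foxa2. The median over the 32851 windows of this length in the table was 25.7%, and the shares of windows with and without a peak overlapped. A cytidine followed by 2 bases of any kind, repeated, is a pattern that has been associated with ac4C. The motif CNNCNNCNNCNN, searched as the only motif on both strands, was present on the gene's strand in all 8 windows, with longest runs of 4 to 5 units in the 3 with a peak and 4 to 7 in the other 5. It was present on the gene's strand in 66.7% of all windows and on either strand in 86.3%, so its presence did not set these starts apart.

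Starts inside peaks were rare in the list. Of 5351 protein-coding genes with a peak and a start in the table, 294 had an annotated start inside a peak (5.49%). Among the 5 genes of this group in that table, Gata2 was the only one, with 2 of 2 starts. The first peak of Foxo1 began 82 bases after its start. The peak of Foxa2 began 652 bases after the nearest of its 3 annotated starts. Sox17 has no entry in that table, so its peak is placed from the lower coordinate of its span.

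**Figure D1:**
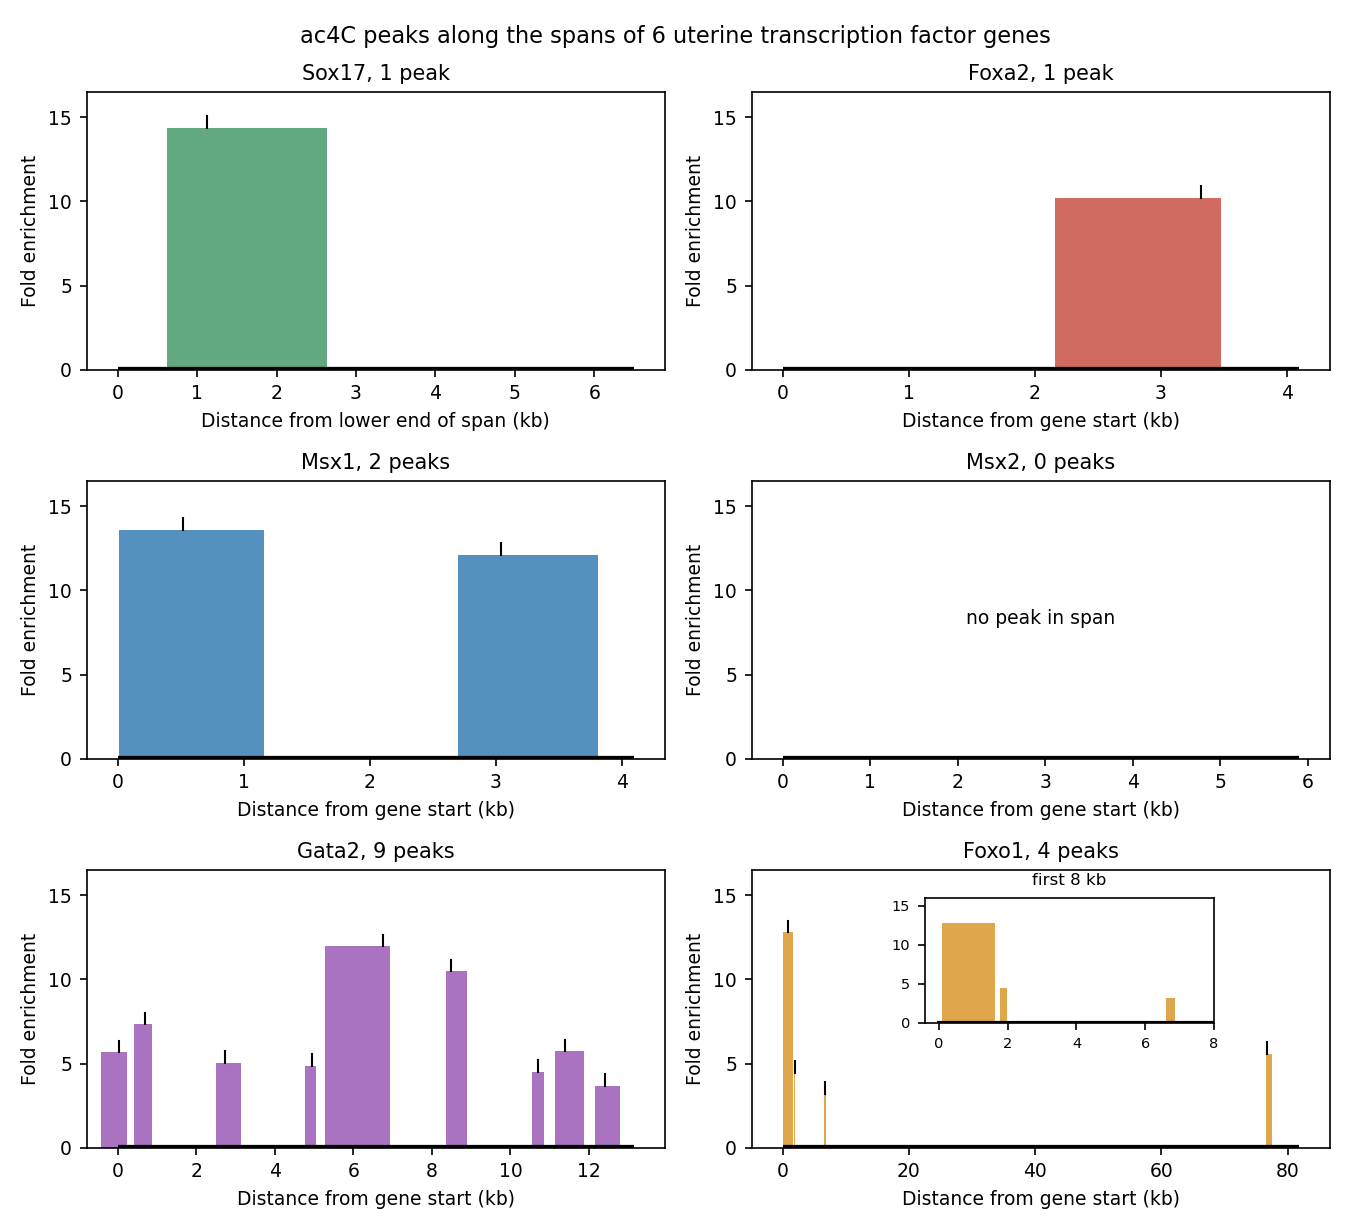
Peaks along the spans of the 6 genes. The x axis is the distance from the gene start in kb (for Sox17, from the lower coordinate of the span), the y axis the fold enrichment given by the authors' peak caller, each bar is 1 peak drawn at its width, the tick its summit and the black line the gene span; the inset enlarges the first 8 kb of Foxo1. Gata2 has 9 peaks spread from end to end, Foxo1 has 3 peaks near its start and 1 near its end, and Msx2 has none.

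Sox17 had the highest deposited fold enrichment of the group. Its single peak (NCBI gene 20671, chromosome 1, 4491553 to 4493560) was 2008 bp wide and covered 30.9% of the 6.50 kb span. Fold enrichment, the signal at the summit over the background of the authors' peak caller, each with 1 added, was 14.4 (95% Poisson interval 11.7 to 17.6). It rested on 94 fragments over a background of 5.60, both recovered from the deposited fold and p-value. The interval covers counting error of the immunoprecipitation alone. The peak was wider than 99.1% of all peaks and its fold exceeded 97.1% of them. The summit lay 1123 bases above the lower end of the span, and no other gene of the table overlapped Sox17.

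Msx1 (NCBI gene 17701, chromosome 5, 37820491 to 37824585, minus strand) held 2 peaks, one at each end of a span of 4095 bases. The peak near the start (37823424 to 37824572) had a fold enrichment of 13.6 (95% interval 10.7 to 17.0) on 72 fragments. The peak near the far end (37820779 to 37821884) had one of 12.1 (9.63 to 15.0) on 80 fragments. The intervals overlapped, and a difference in enrichment between the ends of the gene was not tested. A stretch of 1539 bases without a peak separated them. Together the peaks covered 55.1% of the span, more than in 97.6% of protein-coding genes with a peak. This share depends on the length of the span, and the median span of those genes was 26.5 kb. The summit of the far peak also lay in Msx1os, an antisense RNA gene. The peak list carries no strand, so Msx1 and Msx1os cannot be told apart as its source.

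Msx2 (NCBI gene 17702, chromosome 13, 53466881 to 53472780), the close relative of Msx1, held 0 peaks. No peak touched its span, and the nearest summit outside it was 181 kb away, in Ror2. The background over Msx2 was not given in the list, so the list shows only that no enrichment was detectable there at this depth. In bulk RNA, fewer cells of a type and less RNA per cell cannot be told apart, and neither can be told here from less acetylation of the RNA.

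Foxa2 (NCBI gene 15376, chromosome 2, 148042877 to 148046969, minus strand) held 1 peak of 1321 bp, from 148043492 to 148044812. It lay in the far part of the gene, with its summit at 81.0% of the span from the start. Its fold enrichment was 10.2 (95% interval 6.34 to 15.6), the lowest of the 5 highest peaks and the one with the widest interval. The fold adds 1 to fragments and to background, which lowers it most where the background is low. The place of Foxa2 as the lowest depends on this. The summit held 19 fragments over a background of 0.963, and 18.0% of all peaks had a lower background. By the fragments at the highest peak, Foxa2 was therefore the most thinly covered of the 5 genes with a peak. No other gene of the table overlapped it.

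Gata2 (NCBI gene 14461, chromosome 6, 88193891 to 88207032, plus strand) held 9 peaks, the most of the 6 genes. At least that many were found in 396 of the 6709 protein-coding genes with a peak (5.90%). Both counts include summits that also lay in another gene, as 3 of the 9 in Gata2 did. The peaks covered 41.7% of the 13.1 kb span. Their fold enrichment ran from 3.70 to 12.0, and 2 peaks in the middle of the gene stood above most of the others. The fifth peak from the start (88199176 to 88200815, 1640 bp) had a fold of 12.0 (95% interval 9.76 to 14.5) on 100 fragments. The sixth (88202246 to 88202787, 542 bp) had one of 10.5 (7.98 to 13.5) on 57 fragments. The interval of the fifth peak lay above those of 6 of the other peaks and overlapped those of the second and the sixth. The interval of the sixth lay above those of peaks 3, 4, 7, 8 and 9.

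Nearest the start of Gata2, the first and second peaks had folds of 5.67 (3.80 to 8.16) and 7.33 (4.76 to 10.8). Peaks 3 and 4 had folds of 5.02 (3.34 to 7.27) and 4.86 (2.90 to 7.72), on 26 and 16 fragments. The intervals of these 4 peaks overlapped each other. The first peak began 436 bases before the annotated start of Gata2. The summits of the first 3 peaks also lay in Gm38708, a long non-coding RNA gene on the minus strand (annotated start windows in the table), and the genes cannot be told apart there. Summits 4 to 9 lay in Gata2 alone.

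The 3 peaks toward the end of Gata2 combined many fragments with a high background. The eighth (88205019 to 88205772) held 110 fragments, the most of any of the 17 peaks, over a background of 18.4, and its fold was 5.73 (4.72 to 6.89). The fifth held nearly as many, 100, over a background of 7.44. Thus the fold of the fifth was 2.09 times that of the eighth, while the background of the eighth was 2.47 times that of the fifth. The seventh and ninth had folds of 4.51 (3.29 to 6.04) and 3.70 (2.76 to 4.87), on 43 and 49 fragments. The order of the Gata2 peaks by fragments therefore differed from their order by fold.

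Foxo1 (NCBI gene 56458, chromosome 3, 52268337 to 52350109, plus strand) is the longest of the 6 genes, with a span of 81.8 kb. It held 4 peaks, which covered 3.70% of the span. The first (52268419 to 52269970, 1552 bp) had a fold enrichment of 12.8 (95% interval 9.59 to 16.7) on 51 fragments. The second (52270103 to 52270328) stood at 4.44 (2.76 to 6.81) on 19 fragments and the third (52274949 to 52275210) at 3.20 (2.13 to 4.63) on 26. These 3 summits lay in the first 8.17% of the span. A stretch of 69674 bases with no peak followed. The fourth peak (52344885 to 52345872, 988 bp) then lay at 93.9% of the span, with a fold of 5.57 (4.11 to 7.39) on 46 fragments. The interval of the first peak lay above those of the other 3, which overlapped each other.

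**Figure D2:**
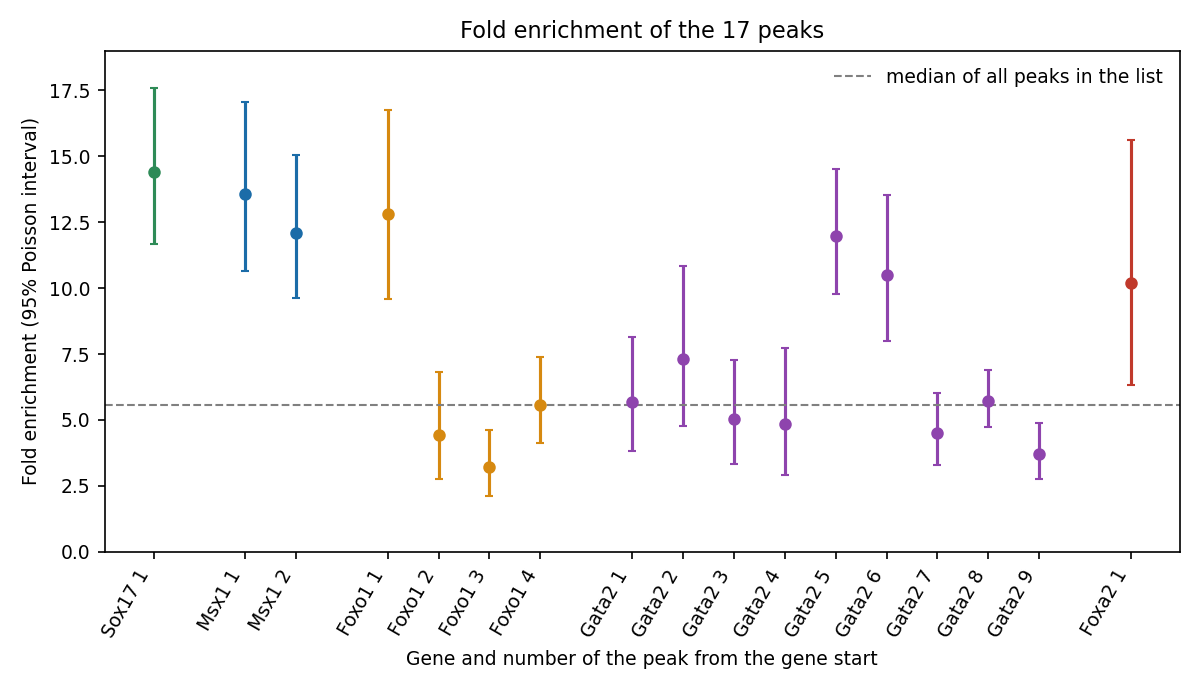
Fold enrichment of the 17 peaks. Points are the deposited fold enrichment of each peak, numbered from the gene start (Sox17 has 1 peak), bars are 95% Poisson intervals from the fragment number, with a fixed background, and the dashed line is the median of all peaks in the list, 5.58. The highest peaks of the 5 genes lie between 10.2 and 14.4 with overlapping bars, and the remaining peaks of Foxo1 lie near or below the dashed line.

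Ordered by their highest peak, the genes were Sox17 at 14.4, Msx1 at 13.6, Foxo1 at 12.8, Gata2 at 12.0 and Foxa2 at 10.2. The intervals overlapped in 10 of the 10 pairs, so the order is not firm. It also depends on the 1 added to fragments and background, which lowers the value of Foxa2 most. Overlap does not show that values are equal, no difference was tested, and the intervals leave out the error of the background. The median over the 5 genes was 12.8, against 6.61 over all 6709 protein-coding genes with a peak. Each of the 5 exceeded at least 81.9% of those genes, the share for Foxa2. That for Sox17 was 93.9%. A gene with many peaks has more chances of a high one, which bears on Gata2 and Foxo1. When all 17 peaks were taken, the median fold was 5.73, close to the 5.58 of the whole list, and 10 of the 17 lay above the list's median. The high values thus belonged to 1 or 2 peaks in each gene.

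The peaks of these genes were wide. Their median width was 664 bp (226 to 2008 bp) against 315.5 bp in the whole list. In each of the 5 genes the highest peak was at least 1000 bp wide. Among all protein-coding genes with a peak, 8.17% had a highest peak of that width. The width was not particular to these genes. Among the paralogues with a peak, described below, the highest peak was 1391 bp wide in Sox7 and 1454 bp in Sox18. It was 1277 bp wide in Gata6 and 1329 bp in Foxo3, but 357 bp in Foxo4 and 200 bp in Gata3. Sox17 and Foxa2 had a single peak. In the 3 genes with more, Msx1, Gata2 and Foxo1, the highest peak was also the widest, as it was in 43.7% of the 3928 protein-coding genes with more than 1 peak. The width of 1000 bp was chosen after the values were seen.

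Width and enrichment went together among the 17 peaks. The 6 peaks of at least 1000 bp had folds of 10.2 to 14.4, and the 11 narrower ones had folds of 3.20 to 10.5. The sixth peak of Gata2 was the only narrower one above 10-fold. The split depends on the width chosen, since the last Foxo1 peak, with a fold of 5.57, was 988 bp wide and just missed it. In the whole list the median was 8.15 for 1165 peaks of at least 1000 bp and 5.50 for the 20027 narrower ones. A fold of at least 10 was reached by 35.0% of the wide peaks and 8.56% of the narrower ones. Width and fold come from the same peak calling, so they are not independent measures.

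**Figure D3:**
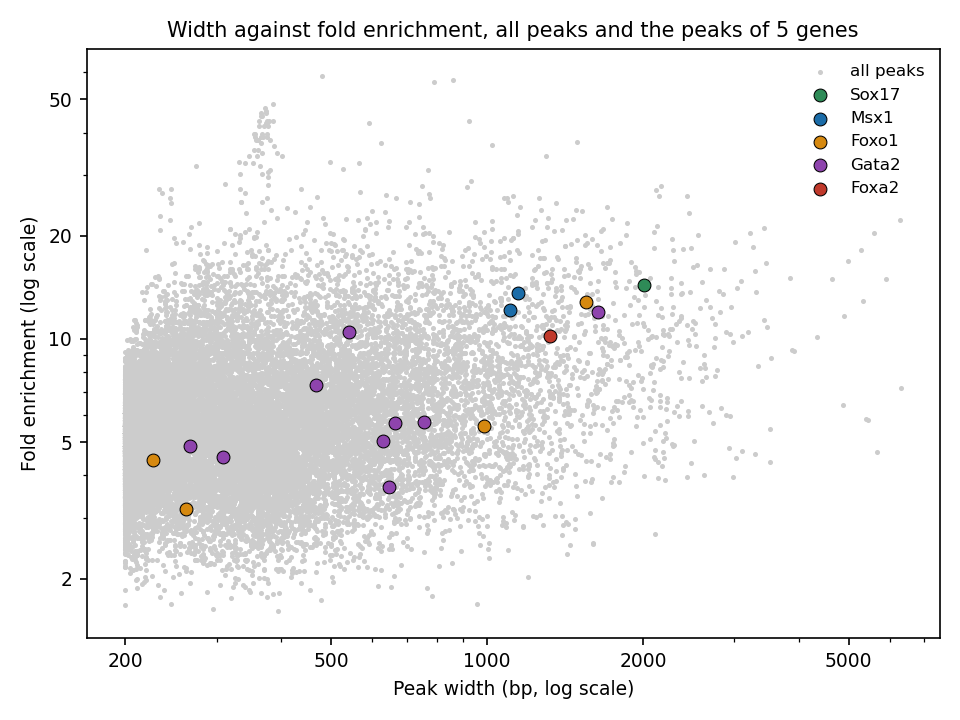
Width against fold enrichment. Each grey point is 1 of the 21192 peaks, coloured points are the 17 peaks of the 5 genes, and both axes are logarithmic (bp on the x axis). The 6 coloured points right of 1000 bp all lie between 10.2 and 14.4.

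The fragment numbers show how well each peak was covered in the immunoprecipitation. They do not cover the error of the background, which was held fixed. The 17 peaks rested on a median of 46 fragments (16 to 110), against 22 in the whole list. Their median background was 4.53, against 2.63. The best covered summits were those of Gata2 peaks 5 and 8, Sox17 and both Msx1 peaks, with 72 fragments or more. The thinnest were Gata2 peak 4 with 16 and Foxa2 and the second Foxo1 peak with 19 each. Foxa2 had a fold of 10.2 at a background of 0.963, and Gata2 peak 5 had one of 12.0 at 7.44. The 1 added to fragments and background lowers the Foxa2 value more, so these folds do not compare plain signal over background.

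**Figure D4:**
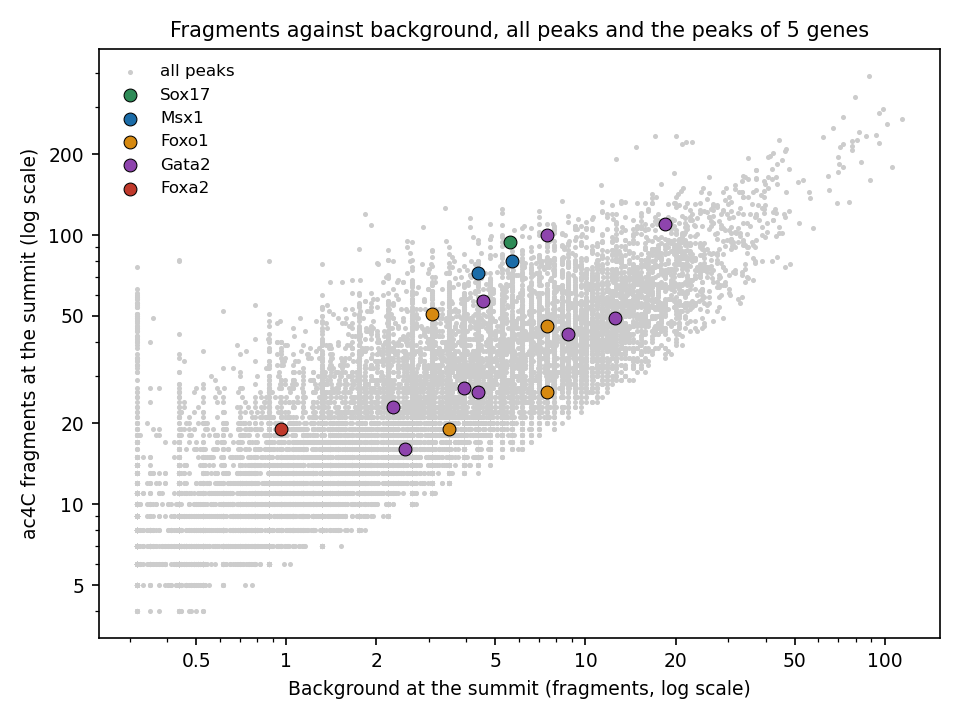
Fragments at the summit against background. Each grey point is 1 of the 21192 peaks, coloured points are the 17 peaks of the 5 genes, and both axes are logarithmic and in fragments, recovered from the deposited fold and p-value. Foxa2 lies far to the left at a background of 0.963, and the eighth Gata2 peak far to the right at 18.4 with 110 fragments.

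Along the genes, 16 summits lay in the 4 genes with a peak and a known strand. Each span was divided into 3 equal parts. The first part held 7 of them (43.8%), the middle part 3 and the last part 6 (37.5%). Over 16163 summits in 5351 protein-coding genes with a known strand, the first part held 22.9% and the last part 53.3%. Gata2 supplied 9 of the 16, and without it the first part held 4 of 7, the last part 3 and the middle part 0. Peaks of 1 gene share its RNA, so these are shares of peaks and not of independent genes. The middle part of Foxo1 was empty, as was that of Msx1, whereas the strongest Gata2 peaks lay there.

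Close relatives of the 6 factors gave a mixed picture. Of 13 paralogues, 6 held a peak (46.2%), against 30.6% of all protein-coding genes. Foxo3, the forkhead relative of Foxo1, held 3 peaks with a highest fold of 14.7 (95% interval 11.4 to 18.6), which overlapped the interval of Foxo1. Foxo4 held 2 peaks and reached 3.76 (2.04 to 6.49), below the interval of Foxo1, and Foxo6 held none. Sox18, which belongs to the same Sox subgroup as Sox17, held 1 peak of 1454 bp with a fold of 14.2 (10.7 to 18.5), overlapping that of Sox17. Sox7, the remaining member of that subgroup, reached 4.65 (3.05 to 6.83), below the interval of Sox17, although its peak was 1391 bp wide. Of the other GATA factors, Gata6 held 2 peaks with a highest fold of 10.8 (6.55 to 16.9) and Gata3 held 1 peak with 4.17 (1.82 to 8.81) on 5 fragments. Gata1, Gata4 and Gata5 held none. Msx3, Foxa1 and Foxa3 held none either, so Msx1 and Foxa2 were the only genes of the Msx and Foxa families with a peak. Transcript abundance was not available for these genes, and its part in these differences was not tested.

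Genes that act with these factors in receptivity were taken as a list of 33, of which 26 held a peak (78.8%), against 30.6% of all protein-coding genes. The list was chosen with earlier results of these data known. The median of their highest fold was 7.90, against 12.8 in the 5 factors, and 17 of the 26 exceeded 6.61, the median over protein-coding genes with a peak. The highest were Arid1a, a chromatin remodelling subunit, at 26.1, Ihh at 23.8, the surface mucin gene Muc1 at 18.2, and the stromal transcription factor genes Hand2 at 17.5 and Nr2f2 at 15.8. The 7 genes with no peak were the ligand genes Lif, Areg, Hbegf and Wnt7a, the LIF receptor gene Lifr, and the decidual genes Igfbp1 and Prl8a2. Among genes tied directly to 1 of the 6 factors, named after their values were seen, Pgr, the progesterone receptor gene linked to GATA2, held 3 peaks with a highest fold of 10.02 (8.34 to 11.9). Wnt5a, a ligand gene whose RNA is raised in uteri without MSX factors, held 8 peaks with a highest fold of 11.5 (9.10 to 14.4). Thus Ihh, Pgr and Wnt5a held peaks and Lif, which depends on FOXA2, did not. No gene was named in this way for FOXO1, so this is not a tally over the targets of the factors.

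For each of the 5 genes, the 1 other protein-coding gene most like it was found over 4 measures, the number of peaks and the fold, background and width of the highest peak. Likeness was the distance on a log2 scale in units of the SD over all genes with a peak, among 6704 genes. Sox17 was nearest to Hspa1b (distance 0.451), with 1 peak of 2169 bp and a fold of 12.3. Msx1 was nearest to Gspt1 (0.399), with 2 peaks and a highest fold of 11.9. Foxa2 was nearest to Fzd7 (0.382), with 1 peak of 1356 bp and 11.4. Gata2 was nearest to Furin (0.337), with 8 peaks and 11.6, and Foxo1 to Tulp4 (0.399), with 3 peaks and 12.7. A nearest gene exists for any gene, and the usual size of this distance was not computed, so how close these matches are was not judged. The values show only that highest folds of this size also occurred in genes outside the group.

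Marker genes of the tissue were described by whether they held a peak. A peak is enrichment of ac4C and not a measure of expression, so these counts cannot check the tissue label. Peaks were found in 5 of 5 myometrial markers, 6 of 6 stromal markers and 5 of 6 epithelial markers, of which Epcam had none, against 30.6% of all protein-coding genes. Some markers of other cells held a peak too, with 3 of 3 for endothelium and 2 of 4 for blood and immune cells. The oviduct marker Pax8 held a peak and Ovgp1 did not, 1 of 3 ovarian markers (Amh) held one, and 0 of 2 liver markers did. Whether RNA of these cells contributes to the peaks of the 6 genes was not tested.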

How the data were processed

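Libraries of whole mouse uterus were used, grouped by their titles into ac4C immunoprecipitation and input control. HISAT2 2.2.1, MACS3 3.0.0a7 and build mm10 are named in the submitters' processing notes, with no options. The deposited file was 1 peak list without strand, holding for each peak the fold enrichment (a ratio), −log10 p-value, −log10 q-value and score given by the authors' peak caller. Which control the fold refers to is not given in the sources used here. The largest q was 0.0499. Read totals were not used here.

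Summits were placed in RefSeq gene spans of GRCm38.p6. A summit in overlapping genes was counted for each. Strand and gene starts came from RefSeq start windows, which held 5 of the 6 genes. Exons were not used here. A whole number of fragments at each summit was sought that gave both the deposited fold (with a pseudocount of 1) and the Poisson p within a relative tolerance of 1e-05. It was found for 21192 of 21192 peaks, with a second match in 0. Tested on data simulated with the same formula, the step returned the right number in 100% of 971 peaks. This checks the arithmetic of the step and not the model of the authors' caller. When the p-values were swapped among the simulated peaks, a number matched in 0.41% of them. Fold intervals are exact 95% Poisson intervals of that number. PCR copies were not told from separate molecules. No test across peaks was made, as each group is 1 library.

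The members and lists were chosen with earlier results of these data known. Named are the 6 genes, all 13 paralogues, of the receptivity list the 5 highest and those without a peak, and for each gene with a peak its nearest gene. Pgr, Wnt5a, the single marker genes and genes that overlap or neighbour a member were named outside this rule, after their values were seen. Alternatives were stricter q, fold and width limits, other rules for giving peaks to genes, and the median peak of a gene. Python 3.11.15 with numpy 2.4.6, pandas 2.3.3 and scipy 1.17.1 was used.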

Additional observations from a re-analysis of the deposited data

How the results depend on the processing

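The alternatives changed which peaks were kept or how they were given to genes. The number of peaks in the 6 genes, 17, was 10 with a fold at or above the list median and 7 with a width of at most 631 bp, and 13 to 17 otherwise. The number of genes with a peak stayed at 5 except under the width limit, where it was 2 (Gata2 and Foxo1), since the only peaks of Sox17, Msx1 and Foxa2 were wider. Under that limit the median of the highest folds was 7.46 and Foxo1 stood at 4.44, both by removal of the highest peak. With the median over each gene's peaks it was 10.2. For the median fold over all peaks of these genes, 5.73, a lower limit of 10 on −log10 q gave 10.2 and the fold limit 11.2, by construction. Their median width was 988 bp with the q limit, 1127.5 bp with the fold limit, 309 bp with the width limit and 754 bp for summits in 1 gene of any kind. Of all protein-coding genes 30.6% held a peak, and this share was 17.5%, 20.4% and 28.8% with the q, fold and width limits, 32.2% with spans widened by 1000 bases and 27.8% for summits in 1 gene of any kind. Paralogues with a peak numbered 3 with the q limit, 3 with the fold limit and 4 with the width limit, against 6. The alternatives for the paralogues, for the receptivity list (21 to 26 genes) and for the place along the span were chosen after the data were seen. Of 27 values for single genes, 25 equalled the reported value, which the strength of these peaks fixes under the q and fold limits. Sox17, Msx1 and Foxa2 had no peak left under the width limit, so they gave no value there and are not among the 27 for it. No paired analysis was possible because each group holds 1 library. Read totals were not used, so whether depth bears on Msx2 and on the paralogues without a peak was not tested.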
